A study of Mus musculus with 37 samples.

Results

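Oocyte nuclear transfer (NT) embryos are mouse embryos built by placing the nucleus of a skin cell into an MII oocyte, the egg arrested at metaphase of the second meiotic division. Here 2 oocyte NT samples were set against 2 samples of MII oocytes, 4 of the 37 samples of a bead array series on embryos with exchanged genomes. They were chosen by their titles among the 15 samples of the second array version, and all 4 lay on 1 slide. Per the labels, the oocyte NT samples were collected 2 days after tail tip fibroblasts in interphase had served as donors, and one of the pair is called a biological duplicate. The fibroblast samples of the series came from agouti 129xB6 F1 mice. The MII oocytes carry no further description. Beside them stood 1 sample of parthenogenetic embryos, in which an oocyte develops without sperm, 2 days after activation and on the same slide. A pair of 4-cell control samples had been taken 14 h after a mitotic block was lifted, 1 on that slide and 1, by its description, on another. The title of this last sample instead gives the slide and position in the title of oocyte NT 2. Its description was followed, so its slide is not certain. All embryos had been cultured in KSOM medium. How many embryos or oocytes made up a sample, which stage the oocyte NT embryos had reached, and the sex of donors and embryos were not given in the sources used here. Without word on separate litters or donors, the p-values measure only the spread between these samples, which may be technical, and with a pair of arrays on each side all values are of limited precision.

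An MII oocyte does not transcribe its genome. It lives on messenger RNA stored while it grew, and after activation this store is deadenylated and destroyed while the embryo's own genome is switched on, in the mouse mainly at the 2-cell stage. In a transferred embryo the genome that has to be switched on is that of a differentiated cell, and the comparison asks which embryonic messages had appeared and which oocyte messages had gone. Values below are log2 bead signals after normalization across arrays. A gene passed when its adjusted p in limma lay below 0.05, differences are oocyte NT minus the other group in log2 units ± standard error, and "at least" folds stand where a gene was not detected on any array of the lower group, so that only a bound exists. Arrays measure each message as a part of the amplified RNA, so fewer cells and less RNA per cell cannot be told apart. With oligo(dT) priming neither can loss of a message and loss of its poly(A) tail, nor gain of a message and gain of its tail.

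Of 7181 genes tested, 3763 (52.4%) passed between oocyte NT embryos and MII oocytes, 1866 of them (26%) higher and 1897 (26.4%) lower in oocyte NT. Differences of 3 log2 units or more were found for 790 of the higher and 640 of the lower genes. The groups did not overlap for 2637 genes with oocyte NT higher (36.7%) and for 2764 with oocyte NT lower (38.5%). Genes detected on both oocyte NT arrays and on neither MII oocyte array numbered 1091 (15.2%), and 842 of these passed. The opposite pattern, detected in MII oocytes alone, was rarer, with 325 genes (4.53%), of which 322 passed. Detection started at 5.81 and 5.83 on the oocyte NT arrays and at 6.58 and 6.45 on the MII oocyte arrays, which favours the first pattern. The median difference over all genes was -0.06. It was -0.75 when arrays were scaled to their 75th percentile, and that scaling called 1444 genes higher and 2900 lower. It was 0.26 with the authors' series matrix values, which called 2230 higher and 1311 lower. List counts and medians under a scaling are to be read beside that scaling's own values over all genes. Below, directions that turn with the scaling are named as such, relative to 0 and not to all genes.

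Detection separated the groups as well. Probes were detected at rates of 43.3 and 42.9% in oocyte NT embryos, against 33.8 and 34.9% in MII oocytes, 38.8% in the parthenote and 39.8 and 39.3% in the 4-cell controls. Across genes, both oocyte NT samples correlated at 0.960 and both MII samples at 0.943, while each oocyte NT sample correlated with MII oocytes at 0.590 to 0.593. With the parthenote the correlations were 0.924 and 0.944. They describe genes of the same arrays, which are not independent replicates.

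**Figure D1:**
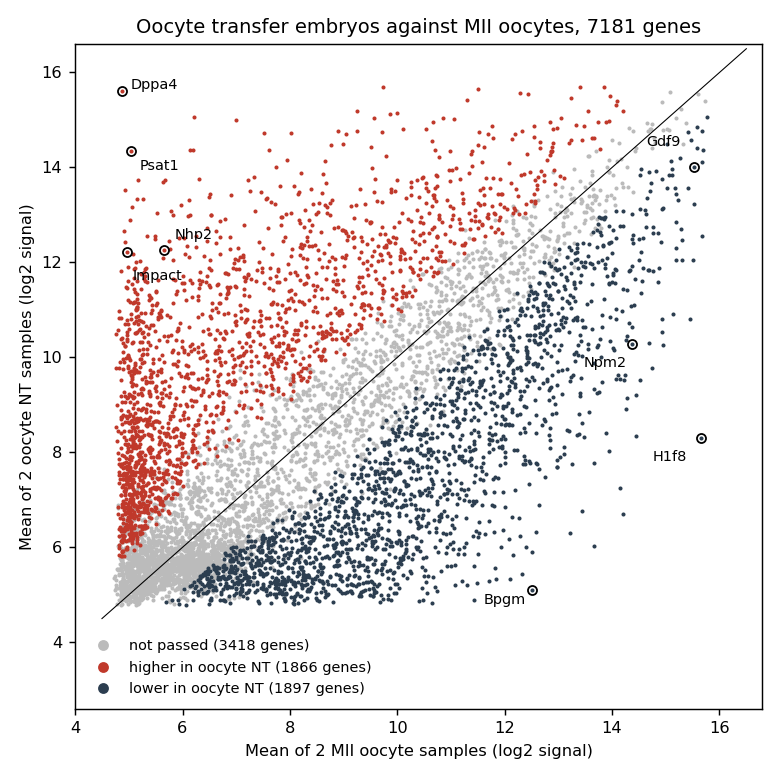
Mean log2 signal of 7181 genes in 2 oocyte NT samples (vertical) against 2 MII oocyte samples (horizontal), with genes that passed in red (1866 higher) and dark blue (1897 lower) and the line of equality in black. Genes near the left edge were at background in MII oocytes, among them Dppa4, with 15.52 and 15.69 in the oocyte NT samples and 4.87 and 4.89 in the MII oocyte samples.

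The largest rise was that of Dppa4, a chromatin protein of early embryos and pluripotent cells. Its log2 signal was 15.52 and 15.69 in oocyte NT embryos, against 4.87 and 4.89 in MII oocytes, where it was not detected. No sample of one group came near the other, and the gene was at least 544-fold higher, adjusted p = 1.31e-09. It stood as high in the parthenote (15.28) and in the 4-cell controls (15.71 and 15.58). On the first array version it differed by -4.16 log2 units between fibroblasts and interphase zygotes, lower in fibroblasts.

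The other genes with the largest rises came from general metabolism and cell maintenance. Psat1, an enzyme of serine synthesis, had 13.99 and 14.72 in oocyte NT embryos and 4.98 and 5.11 in MII oocytes (at least 229-fold higher, adjusted p = 2.57e-08). Selenos, a selenoprotein of the endoplasmic reticulum, had 14.93 and 15.21 in oocyte NT embryos and 5.46 and 6.97 in MII oocytes, of which 1 was detected (8.85 ± 0.41, adjusted p = 1.46e-07). Ppp2cb, a catalytic subunit of protein phosphatase 2A, had 13.81 and 13.66 in oocyte NT embryos and 4.95 and 5.39 in MII oocytes (at least 149-fold higher, adjusted p = 2.57e-08). All of these stood above the oocyte level in every oocyte NT sample without overlap. Prdx4, a peroxiredoxin of the endoplasmic reticulum (adjusted p = 4.55e-08), Prps1, which makes the precursor of nucleotides (8.23 ± 0.52, adjusted p = 8.21e-07), Ormdl3, a regulator of sphingolipid synthesis (at least 114-fold higher), and Rabgef1, an exchange factor for Rab5 (at least 129-fold higher), followed. Guca1a, known as a guanylate cyclase activator of the retina, had 14.65 and 14.09 in oocyte NT embryos and 6.01 and 6.37 in MII oocytes (at least 231-fold higher), with 14.36 in the parthenote and 14.52 and 14.42 in the 4-cell controls. The remaining names among the 12 largest rises were Uap1l1, Ranbp10 and Flvcr2. None of the 12 differed past the threshold from the 4-cell controls or from the parthenote.

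Genes of the major wave of zygotic genome activation, a list taken from textbook knowledge of mouse embryos, mostly rose: 18 of 28 tested passed higher and 4 lower, with a median of 3.31, beside 26% higher and a median of -0.06 over all genes. Eif1a, a translation initiation factor and a classic activation marker, had 8.97 and 10.45 in oocyte NT embryos and 5.05 and 5.15 in MII oocytes (at least 9.16-fold higher, adjusted p = 2.49e-05). The 4 lower members included Nfya, a subunit of the CCAAT-binding factor (at least 2.45-fold lower, adjusted p = 0.00231), and Rpl39l, a ribosomal protein paralog at 5.56 and 5.31 in oocyte NT embryos and 8.25 and 6.06 in MII oocytes, whose call (adjusted p = 0.043) was lost without oocyte NT 1, without oocyte NT 2, without MII oocyte 1 (-2.81 to -0.62 with 1 sample left out), within the slide and with the series matrix values.

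The transient wave of the 2-cell stage, which in the mouse is marked by repeat-linked genes, was represented by few probes. Of 32 genes listed 6 were tested, and 3 of them passed, all higher, beside 26% of all genes. Tdpoz1, a member of a 2-cell gene family, had 12.26 and 12.12 in oocyte NT embryos and 6.26 and 5.85 in MII oocytes (at least 51-fold higher, adjusted p = 1.08e-05), with 10.64 in the parthenote and 12.06 and 10.43 in the 4-cell controls. Zfp352, a retrotransposon-derived zinc finger gene, had 9.56 and 9.86 in oocyte NT embryos and 4.99 and 5.10 in MII oocytes (at least 9.18-fold higher, adjusted p = 0.00535). Between both 4-cell controls it differed widely, at 9.17 and 5.21. Tcstv3 passed (2.00 ± 0.73, adjusted p = 0.0383) but lost its call when any 1 of the 4 samples was left out (1.64 to 2.35), with scaling to the 75th percentile and with the series matrix values. Probes of such multigene families can bind near-identical copies, so these values may belong to more than 1 copy. Zscan4c was not tested.

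A wider view came from genes that the first array version had shown to rise or fall when normal zygotes became 2-cell embryos. The activation set held genes at least 1 log2 unit higher in 2-cell controls than in interphase zygotes, the decay set genes at least 1 lower, both past an adjusted p of 0.05 there. In oocyte NT embryos 1039 of 1505 activation genes passed higher than in MII oocytes and 48 lower, with a median of 2.40. Of the 1436 decay genes, 71 passed higher and 868 lower, with a median of -1.83. Over all genes tested the shares were 26% higher and 26.4% lower. Most genes that rise between zygote and 2-cell embryo were thus higher than in the oocyte here too, and most that decay were lower. With the series matrix values 669 decay genes passed lower (46.6%, a minority) and 121 higher. Some exceptions were large. Nagk, an N-acetylglucosamine kinase of the activation set, had 7.77 and 7.90 in oocyte NT embryos, against 12.10 and 12.67 in MII oocytes (-4.55 ± 0.38, adjusted p = 4.27e-06). Abhd2, a lipid hydrolase of the decay set, had 11.30 and 10.49 in oocyte NT embryos and 7.29 and 6.67 in MII oocytes (3.91 ± 0.66, adjusted p = 0.000486), against 5.73 and 6.66 in the 4-cell controls. Casp9, the initiator caspase of the mitochondrial death pathway, belongs to the activation set and fell (-3.24 ± 0.57, adjusted p = 0.000634).

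**Figure D2:**
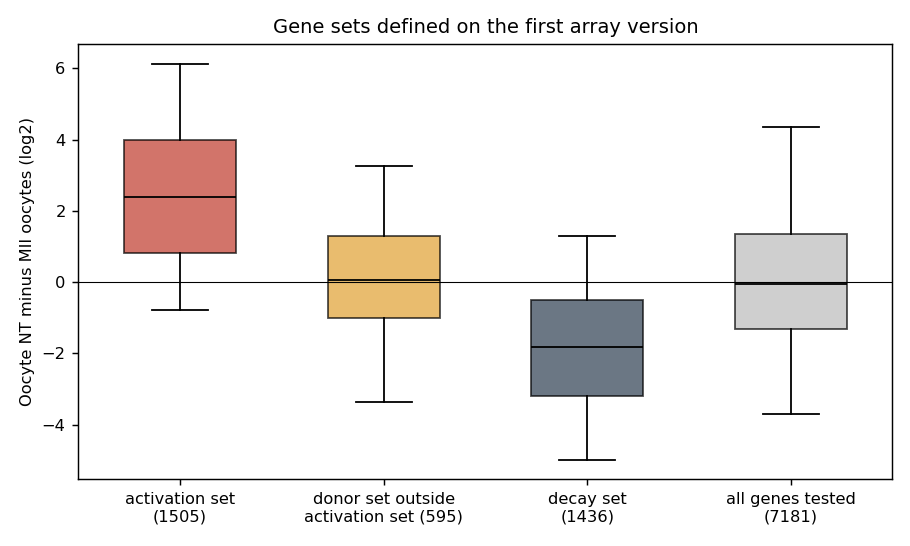
Log2 difference of oocyte NT minus MII oocytes for 3 gene sets defined on the first array version and for all 7181 genes; boxes span the quartiles with the median, whiskers the 5th to 95th percentile. The activation set sits above 0 (median 2.40), the decay set below it (-1.83), and fibroblast genes outside the activation set close to all genes (0.07 against -0.06).

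The machinery that makes ribosomes rose broadly. Of 76 ribosome biogenesis genes tested, 54 passed higher and 3 lower in oocyte NT embryos, with a median of 2.57. Over all genes 26% passed higher and 26.4% lower. Under scaling to the 75th percentile the counts were 43 and 8, with the series matrix 57 and 3. Nhp2, a protein of the H/ACA particles that modify ribosomal RNA, had 12.31 and 12.19 in oocyte NT embryos and 5.94 and 5.38 in MII oocytes (at least 53.4-fold higher, adjusted p = 4.37e-07). Ncl, nucleolin, had 11.07 and 12.51 in oocyte NT embryos and 5.27 and 5.29 in MII oocytes (at least 38.8-fold higher, adjusted p = 1.82e-06). Ubtf, the upstream binding factor of RNA polymerase I, had 13.58 and 13.65 in oocyte NT embryos and 7.64 and 7.99 in MII oocytes (5.80 ± 0.31, adjusted p = 3.32e-07). The oocyte level of Nhp2 and Ncl was background and that of Ubtf low but detected, and the groups did not overlap for any of the 3. Rrp12, a factor of ribosome export, rose as well (6.25 ± 0.59, adjusted p = 9.82e-06). Against the trend Riok1, a kinase of late small subunit assembly, had 12.41 and 11.67 in oocyte NT embryos and 15.35 and 15.25 in MII oocytes (-3.26 ± 0.28, adjusted p = 4.79e-06), and Nol9, a kinase of ribosomal RNA processing, fell (-4.22 ± 0.64, adjusted p = 0.000242). Rrp1b also passed lower, but its probes disagreed in direction.

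Nhp2 and Ncl rose from background, and H1f8, the oocyte histone described below, fell strongly. The bases before their starts are shown because these genes mark both sides of the comparison. They are the 250 bases ahead of the annotated start in RefSeq on build GRCm38.p6, for Nhp2 chr11:51619523-51619772 on the plus strand, for Ncl chr1:86359456-86359705 on the minus strand and for H1f8 chr6:115944681-115944930 on the plus strand. Capitals mark the motifs CCAAT and GGGCGG on either strand, so that ATTGG and CCGCCC are marked as well; matches of the CCAAT motif may overlap each other.
Nhp2: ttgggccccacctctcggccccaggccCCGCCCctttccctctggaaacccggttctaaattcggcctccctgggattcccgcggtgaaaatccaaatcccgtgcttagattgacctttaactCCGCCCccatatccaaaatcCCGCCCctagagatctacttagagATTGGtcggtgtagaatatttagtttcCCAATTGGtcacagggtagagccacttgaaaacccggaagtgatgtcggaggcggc
Ncl: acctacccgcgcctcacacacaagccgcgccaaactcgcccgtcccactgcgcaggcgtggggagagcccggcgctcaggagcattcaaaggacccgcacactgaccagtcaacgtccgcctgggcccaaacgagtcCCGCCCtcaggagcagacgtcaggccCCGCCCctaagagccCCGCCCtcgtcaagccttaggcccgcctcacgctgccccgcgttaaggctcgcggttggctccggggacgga
H1f8: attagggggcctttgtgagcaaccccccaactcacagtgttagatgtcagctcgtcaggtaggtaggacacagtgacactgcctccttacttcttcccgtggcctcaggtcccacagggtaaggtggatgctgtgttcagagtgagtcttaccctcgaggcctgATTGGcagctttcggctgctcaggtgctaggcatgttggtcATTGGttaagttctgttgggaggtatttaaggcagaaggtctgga
Nhp2 carried 3 matches of CCAAT and 3 of GGGCGG, Ncl 0 and 3, and H1f8 2 and 0. None of the 3 held CACGTG or TATAAA. Among the 46 of the 54 higher ribosome biogenesis genes with a RefSeq promoter, 54.3% held GGGCGG and 32.6% CCAAT. Over the 5852 tested genes with a promoter these shares were 57 and 36.4%, and over all 27025 promoters 32.9 and 34.5%. CACGTG, the E-box, was in 6.52% of the 46 promoters and 7.98% of those of the tested genes.

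The proteins that use and accompany ribosomes moved the same way. Cytosolic ribosomal protein genes passed higher for 23 and lower for 2 of 32 tested, with a median of 2.43, beside 26 and 26.4% of all genes. Under scaling to the 75th percentile the counts were 18 and 6, with a median of 1.18. Rps9 had 14.58 and 14.27 in oocyte NT embryos and 9.57 and 9.45 in MII oocytes (4.91 ± 0.22, adjusted p = 1.06e-07), and Rps27 rose by a like amount (5.48 ± 0.40, adjusted p = 1.88e-06). Rpl22, which also has a role outside the ribosome, was an exception: it was not detected in oocyte NT embryos (5.50 and 5.51) and had 9.56 and 10.06 in MII oocytes (at least 15.9-fold lower, adjusted p = 0.000138). Translation initiation genes passed higher for 15 and lower for 1 of 25, and for 12 and 5 under scaling to the 75th percentile. Eif4h, a helper of the RNA helicase eIF4A, rose (5.65 ± 0.46, adjusted p = 3.83e-06), as did Eif5, which triggers GTP hydrolysis at the start codon (5.32 ± 0.40, adjusted p = 2.33e-06). The 1 lower gene was Eif4e, the cap-binding protein (-2.54 ± 0.66, adjusted p = 0.00766), whose call was lost without oocyte NT 1, without MII oocyte 1 (-3.33 to -1.76 with 1 sample left out) and with the series matrix values.

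Other housekeeping groups rose in part. Oxidative phosphorylation genes passed higher for 25 and lower for 6 of 51, spliceosome genes for 17 and 4 of 35, lysosome and autophagy genes for 10 and 2 of 17. Over all genes 26% passed higher and 26.4% lower. Under scaling to the 75th percentile these list counts were 17 and 11, 12 and 9, and 9 and 4, beside 1444 and 2900 of all 7181 genes. Uqcrc1, a core subunit of respiratory complex III, had 11.93 and 11.50 in oocyte NT embryos and 6.38 and 6.52 in MII oocytes (5.26 ± 0.38, adjusted p = 1.82e-06). Its neighbour in the complex, Uqcrc2, ran the other way, with 11.24 and 11.97 in oocyte NT embryos and 14.38 and 14.75 in MII oocytes (-2.96 ± 0.33, adjusted p = 2.67e-05). Both core subunits of the complex passed, in opposite directions. Srsf1, a splicing activator, rose (5.87 ± 0.23, adjusted p = 4.55e-08), and so did Ctsz, a lysosomal protease (at least 60.9-fold higher, adjusted p = 2.96e-06). Proteasome genes passed higher for 14 and lower for 5 of 28. Under scaling to the 75th percentile the counts were 9 and 13, with a median of -0.22, beside -0.75 over all genes. Psmb4, a subunit of the 20S core, rose (3.92 ± 0.21, adjusted p = 3.32e-07), while Psmd9, an assembly chaperone, fell (-3.92 ± 0.54, adjusted p = 0.000122).

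Of 30 genes of DNA replication 11 passed higher (36.7%) and 8 lower (26.7%), and of 31 cell cycle genes 11 (35.5%) and 6 (19.4%). These shares were not far from the 26 and 26.4% of all genes. Under scaling to the 75th percentile the counts were 8 and 12, and 9 and 11, beside 1444 and 2900 of all 7181 genes. Cdk1, the mitotic kinase, had 11.05 and 11.82 in oocyte NT embryos and was not detected in MII oocytes (at least 30.3-fold higher, adjusted p = 1.91e-06), and Cdc25c, a phosphatase that activates it, was at least 29.2-fold higher, adjusted p = 1.14e-05. The mitotic checkpoint genes Bub3 (-4.31 ± 0.47, adjusted p = 2.54e-05) and Ttk (-3.90 ± 0.47, adjusted p = 4.86e-05) fell, and so did Cdc25a (-3.24 ± 0.32, adjusted p = 1.40e-05). Glycolysis genes mostly did not pass (3 higher and 1 lower of 13), but the glucose transporters parted: Slc2a3, of high affinity, was at least 33.2-fold higher, adjusted p = 1.98e-06, and Slc2a1 fell, with 7.27 and 8.35 in oocyte NT embryos and 11.22 and 11.31 in MII oocytes (-3.46 ± 0.68, adjusted p = 0.0014).

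Among p53 response genes 8 of 16 passed higher (50%) and 1 lower (6.25%), beside 26 and 26.4% of all genes. Without oocyte NT 1 only 3 passed higher, without MII oocyte 1 it was 4, without MII oocyte 2 it was 5, and it was 5 under scaling to the 75th percentile. Cdkn1a, the cyclin-dependent kinase inhibitor p21, rose (4.77 ± 0.46, adjusted p = 1.19e-05) and stood at 10.81 and 10.64 in oocyte NT embryos, close to the 11.06 and 11.05 of the 4-cell controls. Ccng1, a cyclin induced by p53, had 11.78 and 10.76 in oocyte NT embryos and 5.69 and 5.10 in MII oocytes (at least 27-fold higher, adjusted p = 4.93e-05). It also lay above both 4-cell controls, at 9.05 and 7.51 (2.99 ± 0.71, adjusted p = 0.0239), a call lost without oocyte NT 1 or either 4-cell control (2.22 to 3.76). Of the immediate early and stress genes 10 of 25 passed higher (40%) and 3 lower (12%). The metallothionein Mt1 (5.97 ± 0.54, adjusted p = 7.39e-06) and Klf9, a factor responsive to glucocorticoids (7.18 ± 0.35, adjusted p = 2.28e-07), rose, and Dusp1, a phosphatase of MAP kinases, fell (-3.12 ± 0.42, adjusted p = 0.00011).

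**Figure D3:**
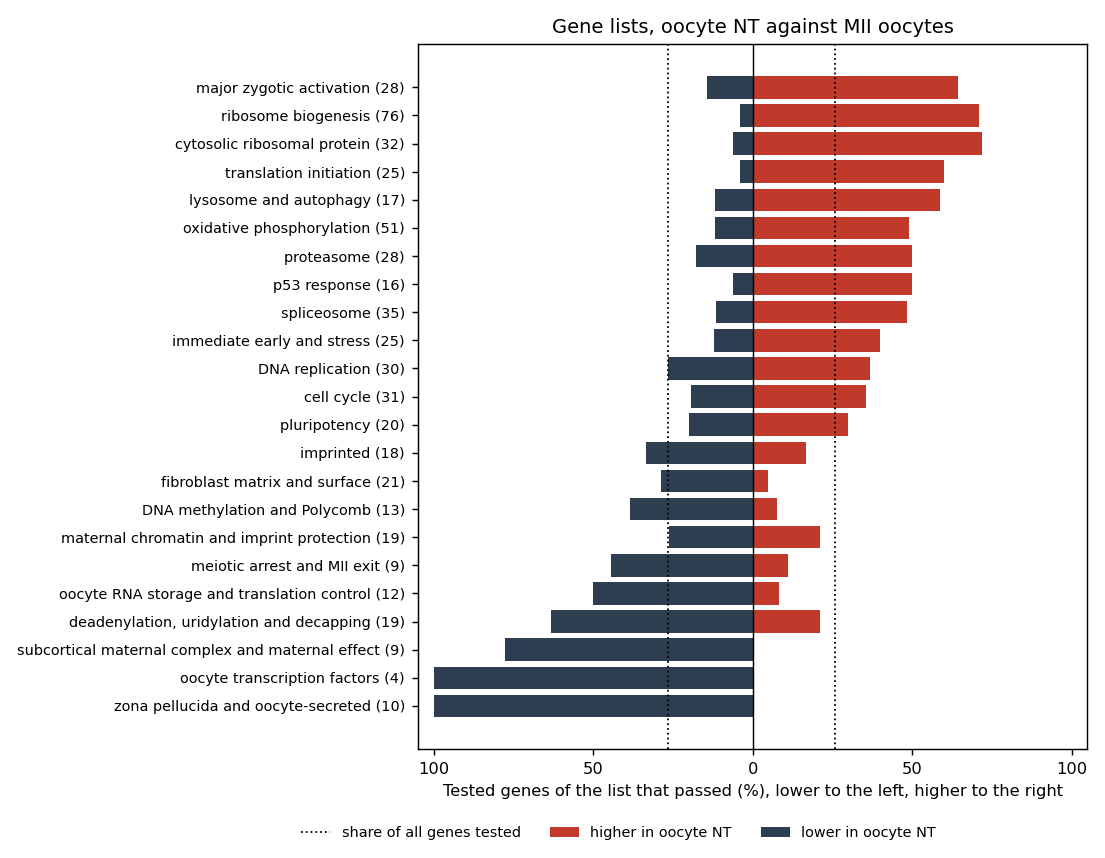
Share of the tested genes of each list that passed higher (red, to the right) or lower (dark blue, to the left) in oocyte NT embryos than in MII oocytes, with the number tested in parentheses and the shares of all genes, 26 and 26.4%, as dotted lines. Lists of growth machinery reach far to the right and oocyte lists to the left.

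The largest falls took strong oocyte signals down to background or near it. H1f8, the oocyte linker histone, had 8.52 and 8.10 in oocyte NT embryos, against 15.62 and 15.69 in MII oocytes (-7.34 ± 0.51, adjusted p = 1.36e-06). Gja4, connexin 37 of the junctions between oocyte and follicle cells, had 6.76 and 5.83 in oocyte NT embryos and 13.05 and 13.37 in MII oocytes (-6.92 ± 0.51, adjusted p = 1.88e-06). Bpgm, the enzyme that makes 2,3-bisphosphoglycerate, was not detected in oocyte NT embryos (5.06 and 5.16) and had 12.31 and 12.70 in MII oocytes (at least 103-fold lower, adjusted p = 1.82e-06). Gja4 was still detected in 1 oocyte NT sample and H1f8 in both. Nrap (-7.62 ± 0.66, adjusted p = 5.67e-06), Cmtm8 (-7.48 ± 0.76, adjusted p = 1.65e-05), the potassium channel gene Kcnk13 (at least 90.6-fold lower), the phospholipid transporter gene Abcb4 (at least 77.2-fold lower) and the NEDD8 protease gene Senp8 (-6.60 ± 0.65, adjusted p = 1.28e-05) were among the other largest falls. Selp, Ipcef1 and 4930451I11Rik completed the 12. In the parthenote Bpgm stood at 7.07 and H1f8 at 9.49, and none of the 12 differed past the threshold from the parthenote.

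The list of oocyte transcription factors held 15 genes, of which 4 were tested. These 4 all fell, with a median of -4.49 (26.4% of all genes fell). Obox1, an oocyte homeobox gene of a multicopy family, had 6.99 and 7.50 in oocyte NT embryos and 14.34 and 13.95 in MII oocytes (-6.90 ± 0.45, adjusted p = 9.99e-07). Obox2 (-4.91 ± 0.45, adjusted p = 7.77e-06), Tcl1 (-4.08 ± 0.47, adjusted p = 3.71e-05) and Gsc (-3.03 ± 0.97, adjusted p = 0.0219) were the others. Tcl1 is a cofactor of Akt kinase that was listed with the transcription factors, and Gsc a homeobox gene better known from the gastrula. The call of Gsc was lost without oocyte NT 1, without either MII oocyte sample (-3.74 to -2.33 with 1 sample left out) and with the series matrix values. Of the subcortical maternal complex and maternal effect genes 7 of 9 fell and 2 did not pass. Ooep, a member of that complex, had 11.13 and 10.70 in oocyte NT embryos and 15.08 and 15.21 in MII oocytes (-4.23 ± 0.31, adjusted p = 1.98e-06), while Zbed3, another member, had 6.51 and 6.15 in oocyte NT embryos and 12.68 and 12.51 in MII oocytes (-6.26 ± 0.44, adjusted p = 1.45e-06).

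All 10 tested genes of the zona pellucida and of oocyte-secreted proteins fell (26.4% of all genes fell), with a median of -2.65, but by very different amounts. At one end stood Fgf8, a growth factor the oocyte sends to cumulus cells, which was not detected in oocyte NT embryos (5.77 and 5.43) and had 11.24 and 10.61 in MII oocytes (at least 34.4-fold lower, adjusted p = 6.63e-06). Astl, the protease ovastacin, which cleaves the zona after fertilization, fell (-3.95 ± 0.53, adjusted p = 0.000111). At the other end stood Gdf9, a growth factor of the oocyte, with 14.21 and 13.81 in oocyte NT embryos and 15.52 and 15.55 in MII oocytes (-1.52 ± 0.31, adjusted p = 0.00179). Its partner Bmp15 had 12.34 and 11.22 in oocyte NT embryos and 13.74 and 14.29 in MII oocytes (-2.23 ± 0.49, adjusted p = 0.00282). Both messages had gone down in both samples and were still among the stronger signals of the arrays. Zp3, a zona protein, fell by a small amount (-1.34 ± 0.45, adjusted p = 0.0264), with a call lost without either oocyte NT sample, without MII oocyte 2 (-2.01 to -0.67 with 1 sample left out), within the slide and with the series matrix values. Nlrp5, also called Mater, fell little as well (-1.16 ± 0.33, adjusted p = 0.013), with a call lost without oocyte NT 2.

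**Figure D4:**
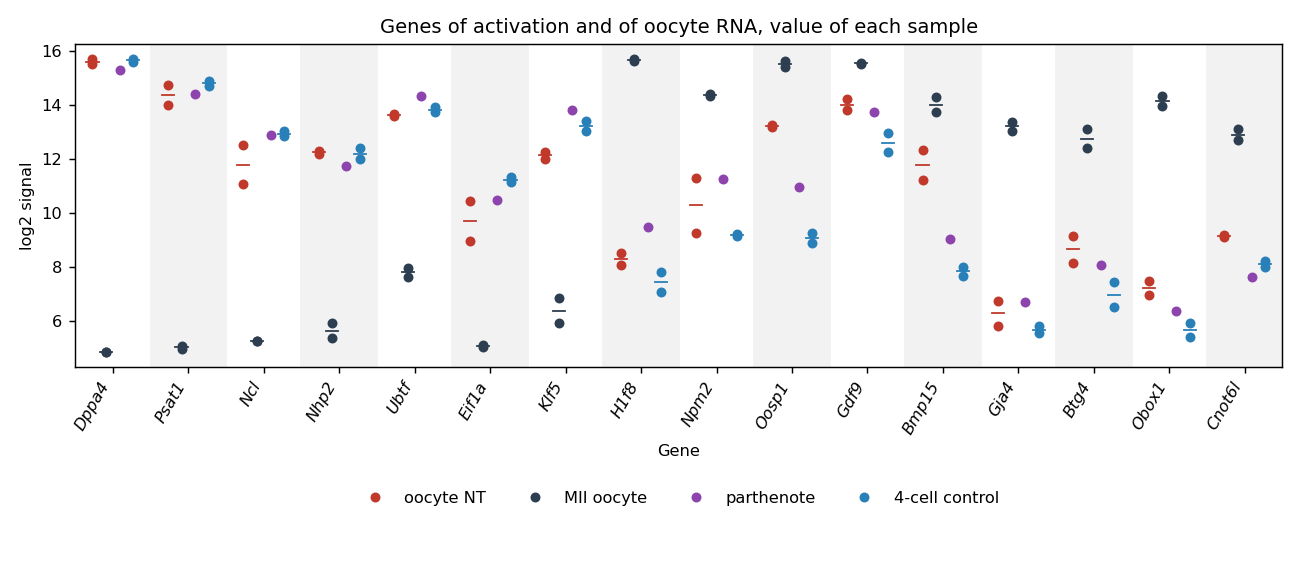
Log2 signal of 16 genes in 2 oocyte NT samples, 2 MII oocyte samples, 1 parthenote and 2 4-cell controls; points are samples and short lines the means of pairs. The first 7 genes are high in oocyte NT embryos and low in MII oocytes. The other 9 are lower in oocyte NT embryos than in MII oocytes, and Gdf9 and Bmp15 keep more signal in oocyte NT embryos than in the 4-cell controls.

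Most tested genes of the machinery that clears messages fell. Of 19 tested genes of deadenylation, uridylation and decapping, 12 passed lower and 4 higher, with a median of -2.28. Over all genes 26.4% passed lower and 26% higher, the shares beside which the counts below stand too. Btg4, the adaptor that brings the CCR4-NOT deadenylase to maternal messages, had 9.16 and 8.17 in oocyte NT embryos and 13.12 and 12.40 in MII oocytes (-4.10 ± 0.48, adjusted p = 4.11e-05). The deadenylase subunit genes Cnot6l (-3.73 ± 0.51, adjusted p = 0.000122) and Cnot7 (-2.91 ± 0.37, adjusted p = 7.96e-05) and the decapping gene Dcp1a (-4.99 ± 0.42, adjusted p = 4.55e-06) fell alongside. Cnot10, another subunit of CCR4-NOT, ran the other way and was at least 5.29-fold higher, adjusted p = 9.88e-05, as did the uridylyltransferase Tut7 (3.21 ± 0.50, adjusted p = 0.000292). Genes of RNA storage and translation control passed lower for 6 and higher for 1 of 12. Cpeb1, which binds the cytoplasmic polyadenylation element, fell (-3.70 ± 0.78, adjusted p = 0.00213), and Stau1, a double-stranded RNA binding protein, fell as well (-3.21 ± 0.42, adjusted p = 8.67e-05). The 1 higher gene was Piwil2, an Argonaute protein of the piRNA pathway (at least 21.4-fold higher, adjusted p = 2.57e-06), at 11.24 and 10.62 in oocyte NT embryos and 11.41 and 11.31 in the 4-cell controls. Among genes of meiotic arrest and exit 4 of 9 fell and 1 rose. Under scaling to the 75th percentile 8 fell and 1 rose, beside 2900 and 1444 of all 7181 genes. Gpr3, the receptor that keeps the oocyte arrested by raising cyclic AMP, fell (-3.24 ± 0.47, adjusted p = 0.000183), and Kif2c, a microtubule depolymerase, rose (1.96 ± 0.38, adjusted p = 0.00128).

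Of 19 maternal chromatin factors tested, 5 passed lower (26.3%) and 4 higher (21.1%), close to the 26.4 and 26% of all genes. Under scaling to the 75th percentile 12 passed lower and 4 higher, beside 2900 and 1444 of all 7181 genes. Npm2, the nucleoplasmin of oocytes, had 11.31 and 9.26 in oocyte NT embryos and 14.42 and 14.33 in MII oocytes (-4.09 ± 0.54, adjusted p = 9.56e-05), with the pair of oocyte NT samples more than 2 log2 units apart. Uhrf1, which guides maintenance DNA methylation, fell (-2.94 ± 0.33, adjusted p = 3.20e-05), and Kdm1b, the histone demethylase needed for maternal imprints, fell (-3.71 ± 0.52, adjusted p = 0.000144). Ehmt2, the G9a methyltransferase of histone H3 lysine 9, had 9.78 and 9.69 in oocyte NT embryos and 5.05 and 5.22 in MII oocytes (at least 9.33-fold higher, adjusted p = 6.55e-06). Dppa3, the maternal protector of methylation also called Stella, did not pass (0.34 ± 0.33, adjusted p = 0.424) and was at 13.02 and 13.76 in oocyte NT embryos and 13.40 and 12.71 in MII oocytes, with overlap; under scaling to the 75th percentile it passed with the opposite sign (-1.01, adjusted p = 0.0351). Among histone genes Macroh2a1, a variant of silent chromatin, had 6.17 and 6.72 in oocyte NT embryos, 10.26 and 10.81 in MII oocytes and 9.20 and 9.27 in the 4-cell controls. It fell against both groups (-4.09 ± 0.48, adjusted p = 4.29e-05 against MII oocytes and -2.79 ± 0.48, adjusted p = 0.00789 against 4-cell controls), the second call being lost without oocyte NT 1 or either 4-cell control (-3.06 to -2.51).

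Of 20 pluripotency genes tested, 6 passed higher (30%) and 4 lower (20%), beside 26 and 26.4% of all genes. Under scaling to the 75th percentile 5 passed higher and 8 lower, beside 1444 and 2900 of all 7181 genes. Klf5, a Krüppel-like factor of the early embryo, had 12.24 and 12.02 in oocyte NT embryos and 6.86 and 5.95 in MII oocytes (5.73 ± 0.45, adjusted p = 2.98e-06), and Klf2 rose too (4.07 ± 0.52, adjusted p = 7.77e-05). Nanog, a core pluripotency factor, had 7.60 and 9.73 in oocyte NT embryos and was not detected in MII oocytes (5.12 and 5.23), which made it at least 4.44-fold higher, adjusted p = 0.00173. In the 4-cell controls it reached 12.74 and 13.18 and in the parthenote 11.02. Pou5f1, which encodes Oct4, had 8.84 and 8.45 in oocyte NT embryos, 9.31 and 10.59 in MII oocytes and 10.73 and 10.92 in the 4-cell controls. It did not pass against MII oocytes (-1.31 ± 0.60, adjusted p = 0.0894). Esrrb, an orphan nuclear receptor, had 8.98 and 10.78 in oocyte NT embryos and 12.39 and 12.76 in MII oocytes (-2.69 ± 0.58, adjusted p = 0.00244), a difference of -1.79 without oocyte NT 1 and of -3.59 without oocyte NT 2. Sox2 was not tested, and Nr5a2 (-0.15 ± 0.38, adjusted p = 0.77) and Klf4 (0.99 ± 0.89, adjusted p = 0.38) did not pass.

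Genes of the trophectoderm and the primitive endoderm, the first lineages to split off, mostly did not pass against the oocyte. Among 20 tested 2 were higher (10%) and 4 lower (20%), beside 26 and 26.4% of all genes. Tead4, needed for the trophectoderm, had 10.65 and 10.79 in oocyte NT embryos and 5.24 and 4.97 in MII oocytes (at least 18.5-fold higher, adjusted p = 1.94e-06), and Tfap2c rose too (3.09 ± 0.54, adjusted p = 0.00066). Cdx2, the factor that fixes trophectoderm fate, was not detected on either oocyte NT array (5.01 and 5.11) or in MII oocytes (5.04 and 5.11). It was detected in the parthenote (7.37) and in the 4-cell controls (9.15 and 9.83). Gata6, the factor of primitive endoderm, had 6.06 and 9.52 in oocyte NT embryos, so that the pair lay more than 3 log2 units apart, against 8.52 and 8.39 in MII oocytes (-0.66 ± 1.11, adjusted p = 0.647).

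Set beside the 4-cell controls, oocyte NT embryos differed for 793 genes (11%), with 486 higher (6.77%) and 307 lower (4.28%). Stage, time since activation and the origin of the genome cannot be told apart here. Without oocyte NT 2 the counts were close to these, 432 higher and 308 lower. They dropped to 62 and 19 without oocyte NT 1, to 64 and 20 without the first 4-cell control and to 62 and 21 without the second. The counts were 60 and 18 with the slide as a fixed block, and 7 and 9 within the slide, where 1 control remained. Of 46 genes named under the rule for this report that passed against 4-cell controls, 13 passed whichever sample was left out: Abhd2, Arrdc4, Atp2c1, Bfsp1, Bmp15, Cdx2, Eif2s3y, Gab1, Impact, Jade1, Ninj2, Tcl1 and Tsga8. The other 33 lost their call without at least 1 of the samples.

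Oocyte messages were higher in oocyte NT embryos than in the 4-cell controls for 5 of 6 oocyte marker genes, with a median of 1.69, beside 6.77% of all genes. With 1 sample left out the count lay between 1 and 5, it was 1 with the slide as a fixed block, and none of the 6 was among the 7 genes called higher within the slide. The summed linear signal of the 6 markers was 32491 and 23209 in oocyte NT embryos, 107754 and 121673 in MII oocytes, 19906 in the parthenote, and 8020 and 11126 in the 4-cell controls. Oocyte NT embryos thus stood between MII oocytes and the embryo controls in these sums, with oocyte NT 2 close to the parthenote. Against the parthenote, of the same day, the median difference of the 6 markers was only 0.48. For the decay set it was 0.10 against the parthenote and 0.19 against the 4-cell controls. Bmp15 had 12.34 and 11.22 in oocyte NT embryos, 9.05 in the parthenote and 7.68 and 8.02 in the 4-cell controls (3.93 ± 0.49, adjusted p = 0.00226 against the 4-cell controls). Oosp1, an oocyte-secreted protein, had 13.26 and 13.19 in oocyte NT embryos, 10.97 in the parthenote and 8.91 and 9.25 in the 4-cell controls, and it passed against both (2.26 ± 0.30, adjusted p = 0.0168 against the parthenote and 4.14 ± 0.24, adjusted p = 2.54e-05 against the 4-cell controls). Over the whole decay set 162 of 1436 genes (11.3%) were higher and 44 (3.06%) lower than in 4-cell controls. Over the activation set 70 of 1505 were higher (4.65%) and 98 lower (6.51%), beside 6.77 and 4.28% of all genes. Without oocyte NT 1 the decay counts were 19 and 0 and the activation counts 11 and 6.

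Several early lineage genes were lower than in the 4-cell controls. Cdx2 differed as given above (at least 12.7-fold lower, adjusted p = 0.0018). Over all genes 4.28% passed lower and 6.77% higher than in the 4-cell controls, the shares beside which the list counts below stand. Among the 20 trophectoderm and primitive endoderm genes 6 passed lower and 0 higher, with between 2 and 4 lower when a sample was left out and 1 within the slide. Nanog (-4.30 ± 0.71, adjusted p = 0.00662), Esrrb (-3.25 ± 0.58, adjusted p = 0.00875), Gata6 (-5.20 ± 1.11, adjusted p = 0.017) and Pou5f1 (-2.18 ± 0.60, adjusted p = 0.0422) passed lower with all samples. Each lost its call without oocyte NT 1 or either 4-cell control, and Pou5f1 also without oocyte NT 2, with differences of -5.36 to -3.23, -4.15 to -2.35, -6.93 to -3.47 and -2.38 to -1.98 in that order. Nanog, Esrrb and Pou5f1 belong to the pluripotency list, of which 5 of 20 passed higher and 4 lower than in 4-cell controls, with a median of 0.13. Its other lower member was Tbx3 (-4.25 ± 1.20, adjusted p = 0.0456). The higher ones were Jade1 (at least 19.1-fold higher, adjusted p = 0.00177), Tcl1 (at least 6.8-fold higher, adjusted p = 0.00283), Il6st, a receptor subunit for LIF (3.21 ± 0.58, adjusted p = 0.00913), Stat3, which acts after that receptor (1.45 ± 0.40, adjusted p = 0.0422), and Mybl2 (1.79 ± 0.50, adjusted p = 0.0437). With 1 sample left out 2 to 4 of the list passed higher and 0 to 2 lower. Tsga8, an X-linked gene of spermatids, was not detected in oocyte NT embryos (5.04 and 5.08) or MII oocytes (5.14 and 5.18), but had 10.87 in the parthenote and 11.10 and 12.35 in the 4-cell controls (at least 59.7-fold lower, adjusted p = 0.00211 against the 4-cell controls and at least 33.2-fold lower, adjusted p = 0.0404 against the parthenote). Rhox9, an X-linked homeobox gene, was likewise undetected in oocyte NT embryos (5.42 and 5.17) and at 9.85 and 10.93 in the 4-cell controls (at least 23.8-fold lower, adjusted p = 0.0149). In all, 70 genes (0.975%) were undetected on both oocyte NT arrays and detected on the parthenote and both 4-cell control arrays.

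**Figure D5:**
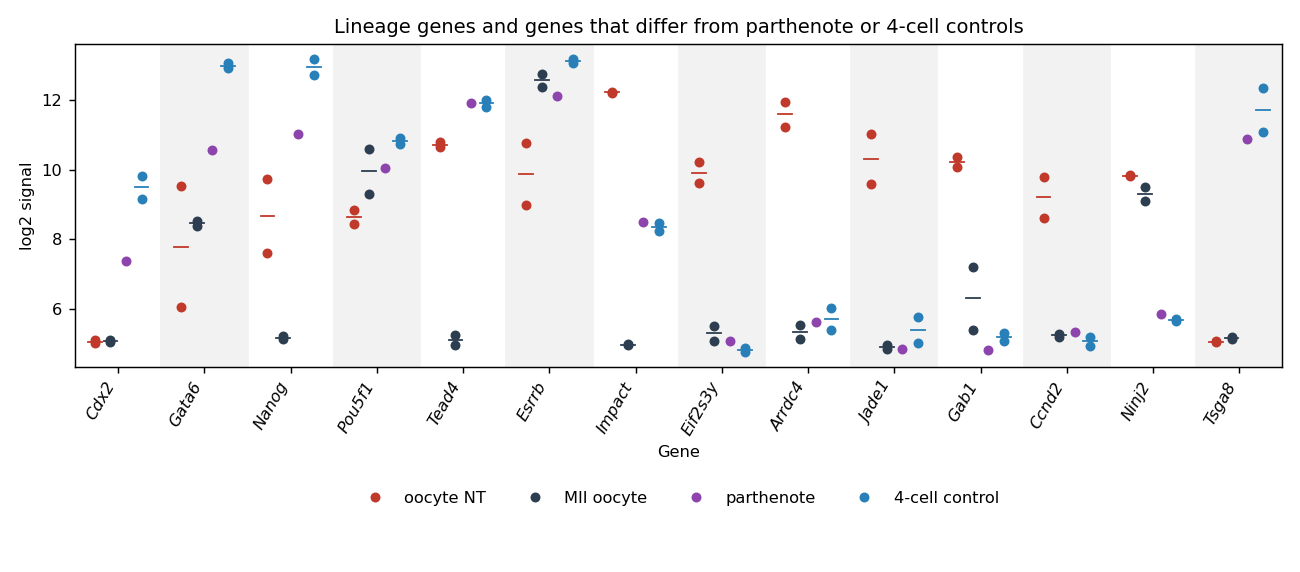
Log2 signal of 14 genes in 2 oocyte NT samples, 2 MII oocyte samples, 1 parthenote and 2 4-cell controls; points are samples and short lines the means of pairs. Cdx2 and Tsga8 are at background in oocyte NT embryos and present in both embryo controls, while Eif2s3y, Arrdc4, Jade1 and Ccnd2 are clearly present in oocyte NT embryos and at or near background elsewhere.

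The parthenote matches the oocyte NT embryos in day and in lacking sperm, and against it 21 of 7181 genes passed (0.292%), 18 higher (0.251%) and 3 lower (0.0418%). The test rests on 1 parthenote sample, assumed to vary like the other groups. With 1 oocyte NT sample left out, between 1 and 12 genes were higher and 0 to 4 lower. Within the slide limma called 0 of either direction, with 423 higher and 298 lower at an unadjusted p below 0.05. This comparison and those with MII oocytes and 4-cell controls share the oocyte NT samples. Arrdc4, an arrestin-like protein induced by glucose, had 11.95 and 11.22 in oocyte NT embryos, 5.63 in the parthenote, 6.03 and 5.40 in the 4-cell controls and 5.53 and 5.14 in MII oocytes (at least 44.9-fold higher than in the parthenote and at least 33.7-fold higher than in MII oocytes). Jade1, a scaffold of a histone acetyltransferase, had 9.58 and 11.02 in oocyte NT embryos and 4.83 in the parthenote (at least 18.4-fold higher, adjusted p = 0.0168); among the named genes its call against the parthenote was the 1 kept without either oocyte NT sample. Ninj2 had 9.84 and 9.83 in oocyte NT embryos and 9.50 and 9.10 in MII oocytes, without passing between them (adjusted p = 0.409), while it was at 5.85 in the parthenote and 5.66 and 5.69 in the 4-cell controls. Atp2c1, a Golgi calcium pump, passed too (4.81 ± 0.77, adjusted p = 0.0326), but its probes disagreed in direction. The 3 lower genes were Tsga8, Cst9, a cystatin (-3.96 ± 0.65, adjusted p = 0.0373), and Nagk (-2.78 ± 0.46, adjusted p = 0.0383).

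Among the 18 higher genes was Eif2s3y, a translation factor gene on the Y chromosome. It had 9.61 and 10.21 in oocyte NT embryos and was not detected in MII oocytes (5.50 and 5.08), the parthenote (5.06) or the 4-cell controls (4.87 and 4.76). It was at least 10.5-fold higher, adjusted p = 1.74e-05 against MII oocytes, and oocytes and parthenotes carry no Y chromosome. Of 6 Y-linked genes on the array 3 were tested. Usp9y was detected on both oocyte NT arrays (6.93 and 6.21) and on no MII oocyte, parthenote or 4-cell array, without passing (adjusted p = 0.0746 against MII oocytes), and Kdm5d was detected on 1 oocyte NT array (5.42 and 6.11) and on none of the others. These 2 genes were chosen after their values were seen. On the first array version the difference of fibroblasts minus zygotes was 4.15 log2 units for Eif2s3y, 1.45 for Kdm5d and -0.08 for Usp9y.

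Imprinted genes are read from 1 parental copy, and a fibroblast genome brings both copies, whereas a parthenote has maternal copies alone. Of 18 tested, 3 passed higher (16.7%) and 6 lower (33.3%) in oocyte NT embryos than in MII oocytes, beside 26 and 26.4% of all genes. Impact, a paternally expressed regulator of translation, had 12.24 and 12.20 in oocyte NT embryos and 4.95 and 4.99 in MII oocytes (at least 52.2-fold higher, adjusted p = 8.21e-07). It had 8.51 in the parthenote and 8.46 and 8.22 in the 4-cell controls (3.71 ± 0.56, adjusted p = 0.0326 against the parthenote and 3.88 ± 0.46, adjusted p = 0.00181 against the 4-cell controls). The 4-cell controls thus lay at the level of the parthenote. Gab1, an adaptor of receptor tyrosine kinases listed with the imprinted genes, had 10.07 and 10.36 in oocyte NT embryos, 4.81 in the parthenote and 5.30 and 5.09 in the 4-cell controls (at least 17.3-fold higher, adjusted p = 0.0326 and at least 18-fold higher, adjusted p = 0.00249), with 5.39 and 7.20 in MII oocytes (3.92 ± 0.67, adjusted p = 0.000536). The imprinted genes that fell included H13, a signal peptide peptidase (-4.28 ± 0.87, adjusted p = 0.00167), Ube3a, a ubiquitin ligase (at least 6.88-fold lower, adjusted p = 2.65e-05), and Kcnq1, a potassium channel (at least 4.62-fold lower, adjusted p = 0.000121). Igf2 did not pass (-0.87 ± 0.89, adjusted p = 0.449), and H19 and Xist were not tested.

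Of the 12 tail tip fibroblast markers 8 were on the array and 4 tested, and none of these 4 (Dcn, Fbln2, Pdgfra and Thy1) was detected on either oocyte NT array. Their summed linear signal was 119 and 148 in oocyte NT embryos, against 618 and 1154 in MII oocytes, 209 in the parthenote and 587 and 491 in the 4-cell controls. The second array version held no fibroblast samples, and a tested gene had to be detected on 2 or more of its 15 arrays. These 4 markers thus entered through arrays other than oocyte NT, which favours lower values in oocyte NT. Markers detected on fewer arrays dropped out. Col1a1 and Col1a2 were not tested. Thy1, a surface protein of fibroblasts, was at 4.89 and 5.14 in oocyte NT embryos and 5.45 and 5.22 in MII oocytes. Dcn, the matrix proteoglycan decorin, was not detected in oocyte NT embryos (4.83 and 4.91) and was detected in both MII oocyte samples (at least 6.64-fold lower, adjusted p = 0.00382 in oocyte NT), a call lost with the series matrix values. In the 4-cell controls the sum was mostly Pdgfra, a growth factor receptor also found in primitive endoderm, at 8.83 and 8.46. Acta2, smooth muscle actin, was detected in 1 oocyte NT sample, in neither MII oocyte sample, and did not pass (adjusted p = 0.924), and S100a6, a calcium-binding protein, did not either (1.12 ± 0.76, adjusted p = 0.241). Of 21 genes of fibroblast matrix and surface 1 passed higher (4.76%) and 6 lower (28.6%). Over all genes the shares were 26% higher and 26.4% lower, so the share of falls was close to that of all genes. The higher one, Ccn1, a matricellular protein also made early after serum, lost its call whichever of the 4 samples was left out, and with 1 sample left out 3 to 5 passed lower. With the series matrix values 2 passed lower.

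The lower genes of that list had their signal in the oocyte samples. Col4a1, a chain of basement membrane collagen, had 6.14 and 6.04 in oocyte NT embryos and 11.22 and 11.35 in MII oocytes (-5.19 ± 0.59, adjusted p = 3.27e-05). Mmp2, a matrix protease, had 9.70 and 10.50 in oocyte NT embryos, 12.87 and 12.71 in MII oocytes, 8.59 in the parthenote and 5.13 and 5.79 in the 4-cell controls (at least 16.7-fold higher than in the 4-cell controls). Its fall against MII oocytes (-2.68 ± 0.84, adjusted p = 0.0192) was lost without oocyte NT 1, without either MII oocyte sample (-3.08 to -2.28 with 1 sample left out) and with the series matrix values. Cumulus cells surround oocytes in the ovary, and of their 17 listed markers 2 were tested. Cyp11a1, an enzyme of steroid synthesis, was detected in both MII oocyte samples (7.38 and 6.47) and in neither oocyte NT sample (5.80 and 5.77; adjusted p = 0.0465), and Ptx3, a matrix protein of the cumulus, in none of the 4. The sum of both was 107 and 87.0 in oocyte NT embryos, 213 and 123 in MII oocytes, 103 in the parthenote, and 152 and 163 in the 4-cell controls. Their part in the values of MII oocytes was not tested.

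Genes that fibroblasts express more strongly were followed as a set, those at least 2 log2 units higher in fibroblasts than in interphase zygotes on the first array version. Of 1054 tested, 470 passed higher and 133 lower in oocyte NT embryos than in MII oocytes. Many of these genes belong to the activation set, such as Psat1. Outside that set 595 remained, of which 136 (22.9%) passed higher and 119 (20%) lower, with a median of 0.07, shares below the 26 and 26.4% of all genes. Under scaling to the 75th percentile the counts were 100 and 190, with a median of -0.63, beside -0.75 over all genes. With the series matrix the counts were 154 and 71. Ccl4, a chemokine, belongs to the donor set and was at least 25.1-fold lower, adjusted p = 6.43e-06 in oocyte NT embryos, and Lurap1l was at least 59.4-fold lower. Nfkbiz, a regulator of NF-kappa-B, fell as well (-5.65 ± 0.76, adjusted p = 0.000111).

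A small number of donor set genes were detected in oocyte NT embryos alone, at a share near that of all genes. Detection on both oocyte NT arrays and on no MII oocyte, parthenote or 4-cell control array held for 29 of the 1054 genes of the donor set (2.75%), for 27 of the 595 outside the activation set (4.54%), for 6 of the 1505 activation genes (0.399%) and for 157 of all 7181 genes (2.19%). This pattern was chosen after the values were seen. Detection started lower on the oocyte NT arrays (5.81 and 5.83) than on the MII oocyte (6.58 and 6.45), parthenote (6.10) and 4-cell control arrays (6.02 and 6.06), which favours it. Leaving out the activation set removes genes that normal embryos raise, so the 4.54% is not on a par with the 2.19% of all genes. Ccnd2, cyclin D2, which drives exit from G1, had 9.79 and 8.61 in oocyte NT embryos, 5.32 in the parthenote, 4.93 and 5.20 in the 4-cell controls and 5.20 and 5.28 in MII oocytes. It was 7.38 log2 units higher in fibroblasts than in zygotes. Gstm1, a glutathione transferase, had 9.45 and 8.86 in oocyte NT embryos and 6.07 and 5.41 in MII oocytes, with 4.84 log2 units between fibroblasts and zygotes. Gadd45g, a growth arrest gene of the p53 list, had 10.86 and 9.07 in oocyte NT embryos and 4.92 and 4.85 in MII oocytes (at least 11-fold higher, adjusted p = 0.00953), a call lost without oocyte NT 1 (4.19 to 5.98 with 1 sample left out). Gpx2, a glutathione peroxidase, had 10.83 and 8.82 in oocyte NT embryos and 4.93 and 5.05 in MII oocytes, and in fibroblasts it lay only 0.93 above zygotes. Ccnd2, Gstm1 and Gpx2 were named after their values were seen.

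The oocyte NT samples were not alike in every gene. Their log2 values differed with a standard deviation of 0.746 over genes, against 0.912 in the MII pair and 0.465 in the 4-cell pair, and by more than 2 units for 126 genes. In the second sample 170 activation genes (11.3%) were more than 1 unit higher and 93 (6.18%) more than 1 unit lower than in the first. Of the decay genes 98 (6.82%) were higher and 175 (12.2%) lower by that much, beside 7.71 and 8.26% of all genes. Among the named genes Nanog, Gata6, Eif1a, Ncl and Esrrb were higher in the second sample, and Npm2, Bmp15, Zp1 and Btg4 higher in the first. The second sample also correlated more with the 4-cell controls, at 0.925 and 0.923, against 0.877 and 0.875 for the first. This describes a pair, without a test.

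Markers of other cell types were mostly low. Of the macrophage and leukocyte markers 0 of 6 passed, and Laptm5, a lysosomal protein of blood cells, was the 1 member with a clear signal, at 10.51 and 10.41 in oocyte NT embryos and 11.23 and 10.45 in MII oocytes, with 6.43 in the parthenote and 7.16 and 5.95 in the 4-cell controls. Endothelial markers had 0 of 4 passing, the sperm and testis list 0 of 1, and the contractile cell markers 1 of 2, namely Tpm2, at 8.08 and 5.81 in oocyte NT embryos and not detected in MII oocytes (adjusted p = 0.0264), a call lost without oocyte NT 1 or either MII oocyte sample. Of 2 keratinocyte markers Trp63, a p53 family factor that oocytes also use, passed lower, at 6.51 and 5.17 in oocyte NT embryos and 8.74 and 9.11 in MII oocytes. Krt14 was undetected in all 4.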

How the data were processed

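RNA had been isolated with the PicoPure kit, amplified and labelled with biotin (Illumina TotalPrep), per the labels' protocols, and read on bead arrays with GenomeStudio, per the submitters' processing notes. The deposited intensity of each probe was not normalized, per the file headers, and came with a detection p-value. The deposited series matrix held a linear intensity too, a linear transform of the first on each array (r = 1) with medians of 4.39 to 12.0 on the 15 arrays. Its scale and centring are not given in the sources used here. Values below the lowest detected one above 0 were raised to it, and their log2 served as an alternative. Intensities of the 15 arrays of the second version were background corrected and quantile normalized with neqc (limma 3.58.1, R 4.3.3, offset 16). Of 25697 probes, 15052 had 1 gene symbol, 0 several and 10645 none, and 15043 were matched by gene identifier. A probe had to be detected (p below 0.05) on 2 arrays or more, and each gene was read from its brightest such probe, which gave 7181 genes. Blastomere NT arrays 1 and 3 were averaged, since they differed by less than other replicates, which left 14 samples. One limma model with group means and 5 residual degrees of freedom, eBayes with trend and Benjamini-Hochberg adjustment over all genes gave all p-values, two-sided, in 3 comparisons. It was checked on simulated data. A fold bound divides the mean of the brighter group by the dim group's detection floor, which is the weakest detected signal of each array or the probe's own signal where that is higher. The activation, decay and donor sets came from 8158 genes of the first array version with the same steps. The donor set differed by at least 2 and the others by at least 1 log2.

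The members, gene lists and sets were chosen with earlier results of these data known. Genes were named by rule: the 12 largest rises and falls against MII oocytes, up to 4 passing genes of each list in its main direction and 2 in the other, the 4 largest rises and falls of each set, a fixed set of oocyte, embryo and fibroblast genes, and the 6 largest rises and falls against each embryo control. Rrp1b, Oosp1, Pdgfra, Il6st, Stat3, Mybl2, Tbx3, Usp9y, Kdm5d, Ccnd2, Gstm1, Gpx2 and the marker genes of other cell types were named after their values were seen. Promoters were read from RefSeq (GRCm38.p6).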

Additional observations from a re-analysis of the deposited data

How the results depend on the processing

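The difference from MII oocytes was the more stable comparison. With 1 sample left out 1582 to 1654 genes were higher and 1503 to 1730 lower, and scaling to the 75th percentile called 2900 lower. Of the values of named genes against MII oocytes over all alternatives, 3211 kept direction and side of the threshold, 8 passed newly, 101 no longer passed and 2 turned: under scaling to the 75th percentile Cenpa was at -0.14 (limma adjusted p = 0.542) and Dppa3 at -1.01 (limma adjusted p = 0.0351). Medians of lists near 0 turned as well. Under scaling to the 75th percentile they were -0.22 for proteasome, -0.58 for glycolysis, -0.26 for cell cycle, -0.033 for immediate early and stress, -0.57 for contractile genes and -0.63 for the donor set outside the activation set. Over all genes the median under that scaling was -0.75, below each of these. With the series matrix values they were 0.46 for pluripotency, 0.37 for DNA replication and 0.26 for all genes. Without a detection filter they were -0.029 for glycolysis and -0.036 for contractile genes, and with genes detected on both arrays of a group -0.036 for contractile genes and 0.064 for all genes. With every probe DNA replication was at 0.058. With 1 sample left out glycolysis ranged from -0.36 to 0.42 and DNA replication from -0.12 to 0.33. The cause was not tested.

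Against 4-cell controls 62 to 432 genes were higher and 19 to 308 lower with 1 sample left out. The counts higher and lower were 319 and 176 without a detection filter, 854 and 620 with only the groups compared, 7 and 9 within the slide and 60 and 18 with the slide as a fixed block. Scaling to the 75th percentile called 508 lower. Fewer samples enter the within-slide fit. Of the values of named genes 3034 kept direction and side, 57 passed newly and 231 no longer passed.

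Against the single parthenote 1 to 12 genes were higher and 0 to 4 lower with 1 oocyte NT sample left out (250 lower at an unadjusted p below 0.05 without oocyte NT 1, where limma called 0). The counts higher and lower were 11 and 0 without background correction (370 lower unadjusted), 42 and 5 with the series matrix, 0 and 1 with only the groups compared and MII oocytes (431 higher unadjusted), 0 and 0 within the slide (423 and 298 unadjusted), 6 and 0 with the slide as a fixed block (277 lower unadjusted), 28 and 7 with 3 separate blastomere NT arrays, and 10 and 1 without trend. Scaling to the 75th percentile called 8 lower, and no detection filter 1 lower. Of the values of named genes 2875 kept direction and side, 1 passed newly and 54 no longer passed.

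No paired analysis was possible because the labels give the samples of these groups no replicate numbers. Leaving out 1 of 2 samples assumes that the lone sample varies like the other groups. Signal near background limits genes at the low end, where detection started at 5.81 and 5.83 in oocyte NT embryos and 6.58 and 6.45 in MII oocytes.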
